A study of Mus musculus with 6 samples.

Results

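The genes described here encode 10 enzymes that make phosphatidylcholine, phosphatidylethanolamine and phosphatidylserine, major phospholipids of cell membranes. They were chosen by name, with earlier results of these data known, from the 24421 gene symbols counted in mouse 3T3-L1 adipocytes: Chka, Chkb, Pcyt1a, Pcyt2, Cept1, Pemt, Ptdss1, Ptdss2, Pisd and Lpcat3. All 10 had enough counts to be tested.

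3T3-L1 is a mouse preadipocyte line, labelled with the strain C57BL/6, that turns into fat-laden adipocytes under hormonal induction. Every culture was differentiated with insulin at 870 nM, a thiazolidinedione (TZD) at 5 µM, dexamethasone (Dex) at 1 µM and IBMX at 500 µM, the last 2 of which were withdrawn on day 3. On day 7 the cells received 100 pfu/cell of an adenovirus with either LacZ, a bacterial control gene (AdLacZ), or Lmo3, which encodes a LIM-domain transcriptional cofactor (AdLmo3), and RNA was taken 72 h later. Each group had 3 libraries from separate infections of this 1 line, and the control cells also carried a virus, so uninfected cells were not part of the comparison. The adenoviral Lmo3 is codon-optimized according to the study's methods. No library had a read on the mouse Lmo3 gene (0 counts, which allows levels of up to 0.0768 to 0.111 CPM, or 3 counts). The group labels could therefore not be checked through this gene. That limit may not hold for mRNA from the virus, whose sequence was altered. By its own assays, the study reported efficient expression of Lmo3 mRNA and protein in adipocytes given AdLmo3.

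Phosphatidylcholine is made along a main and a minor route. In the CDP-choline route, choline kinases (Chka, Chkb) phosphorylate choline, Pcyt1a joins it to CTP in the rate-limiting step, and a choline phosphotransferase, Chpt1 or Cept1, passes it to diacylglycerol. Ethanolamine takes the parallel CDP-ethanolamine route, with Pcyt2 at the cytidylyl transferase step. The minor route, carried out by Pemt, methylates finished phosphatidylethanolamine to phosphatidylcholine. It is best known from liver, and Pemt is also made in adipocytes. Ptdss1 and Ptdss2 exchange head groups to form phosphatidylserine, Pisd decarboxylates phosphatidylserine to phosphatidylethanolamine in mitochondria, and Lpcat3 puts polyunsaturated acyl chains into lysophospholipids. In adipocytes these lipids also form the monolayer around the lipid droplet.

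To set the promoters of the routes to phosphatidylcholine side by side, the 250 bases before the RefSeq start (GRCm38.p6, 5′ to 3′ along the gene) are shown for Pemt, for Pcyt1a and for Pcyt1b, the second cytidylyl transferase gene of the choline route. Pemt and Pcyt1b had higher counts in the AdLmo3 libraries and Pcyt1a did not. Capitals mark matches on either strand to 6 searched motifs. These were AGGTCA (nuclear receptor half-site), TTGCNNAA (C/EBP type), CCAAT (the CCAAT box, bound by NF-Y), GGGCGG (the GC box), TATAAA (the TATA box) and CACGTG (a form of the E-box). The windows lie at chr11:60040189-60040438 (minus strand) for Pemt, chr16:32430671-32430920 (plus strand) for Pcyt1a and chrX:93654613-93654862 (plus strand) for Pcyt1b.
Pemt: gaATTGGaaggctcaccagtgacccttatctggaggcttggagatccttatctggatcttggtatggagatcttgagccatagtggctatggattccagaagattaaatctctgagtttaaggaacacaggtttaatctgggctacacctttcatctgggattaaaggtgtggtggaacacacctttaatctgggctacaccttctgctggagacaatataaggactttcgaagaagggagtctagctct
Pcyt1a: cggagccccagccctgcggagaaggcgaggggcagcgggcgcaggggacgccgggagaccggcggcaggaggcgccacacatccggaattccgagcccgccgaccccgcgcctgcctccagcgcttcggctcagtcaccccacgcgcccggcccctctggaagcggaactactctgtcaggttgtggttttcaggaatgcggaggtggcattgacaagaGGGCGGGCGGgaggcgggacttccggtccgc
Pcyt1b: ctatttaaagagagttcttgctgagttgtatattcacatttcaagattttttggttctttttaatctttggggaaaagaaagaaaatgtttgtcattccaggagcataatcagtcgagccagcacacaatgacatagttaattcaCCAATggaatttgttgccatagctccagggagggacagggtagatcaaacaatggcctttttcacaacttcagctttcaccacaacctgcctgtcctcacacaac
The Pcyt1a window was rich in G and C (71.6%) and held 2 overlapping GC-box matches. The Pemt (44.8%) and Pcyt1b (39.6%) windows held none and had 1 match to the CCAAT box each. These traits were not particular to the genes that rose. The windows of Ptdss2 and Pisd also lacked a GC box, and those of Chka, Chkb and Lpcat3 held the CCAAT box, though none of these 5 genes passed. A link between motifs and counts was not tested. Among the 8 of the 10 enzymes with a window, 5 had a GC box, 4 a CCAAT box and 1 a TATA box. None of these windows held the nuclear receptor half-site, the C/EBP-type motif or CACGTG. Other forms of the E-box were not searched. Of 27025 promoter windows of the same length, 32.9% held a GC box, 34.5% a CCAAT box and 13% a TATA box. The half-site was held by 13.8%, the C/EBP-type motif by 9.55% and CACGTG by 6.05%. Windows for Pcyt2 and Ptdss1 were not used here. The counts are per gene and do not show which start was used. The RefSeq starts of Pemt, Ptdss2, Pisd and, by a short distance, Lpcat3 lie inside the longer genes of the GENCODE annotation. Their windows may thus not be the promoters used in these cells.

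The libraries held 28035639 to 38332335 counts on genes. Levels are given as TMM-scaled CPM, the count of a gene relative to the library total, as mean ± SD with n = 3 per group. Fold changes are AdLmo3 over AdLacZ on the log2 scale with their standard error (SE) from edgeR, and p-values are from edgeR's quasi-likelihood test with Benjamini-Hochberg adjustment over 12766 tested genes. A gene is said to have risen or fallen when its adjusted p was under 0.05. By that rule 4.28% of the tested genes changed, 2.71% being higher (346) and 1.57% lower (201) in the AdLmo3 libraries. Without TMM scaling, on library totals alone, the split turned to 266 higher and 501 lower.

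Among the 10 enzymes, Pemt rose and the other 9 did not pass the test. Pemt was also the single gene of the 10 whose groups did not overlap, whereas 26.5% of all tested genes had groups that did not overlap. The median log2 fold change was 0.05 over the 10 enzymes and 0.00 over all tested genes, with 7 of the 10 values above 0 and 3 below. For 8 of the 9 enzymes that did not pass, the 95% interval of the fold change lay within 1.5-fold in either direction. The ninth was Chkb, the enzyme with the fewest counts.

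**Figure D1:**
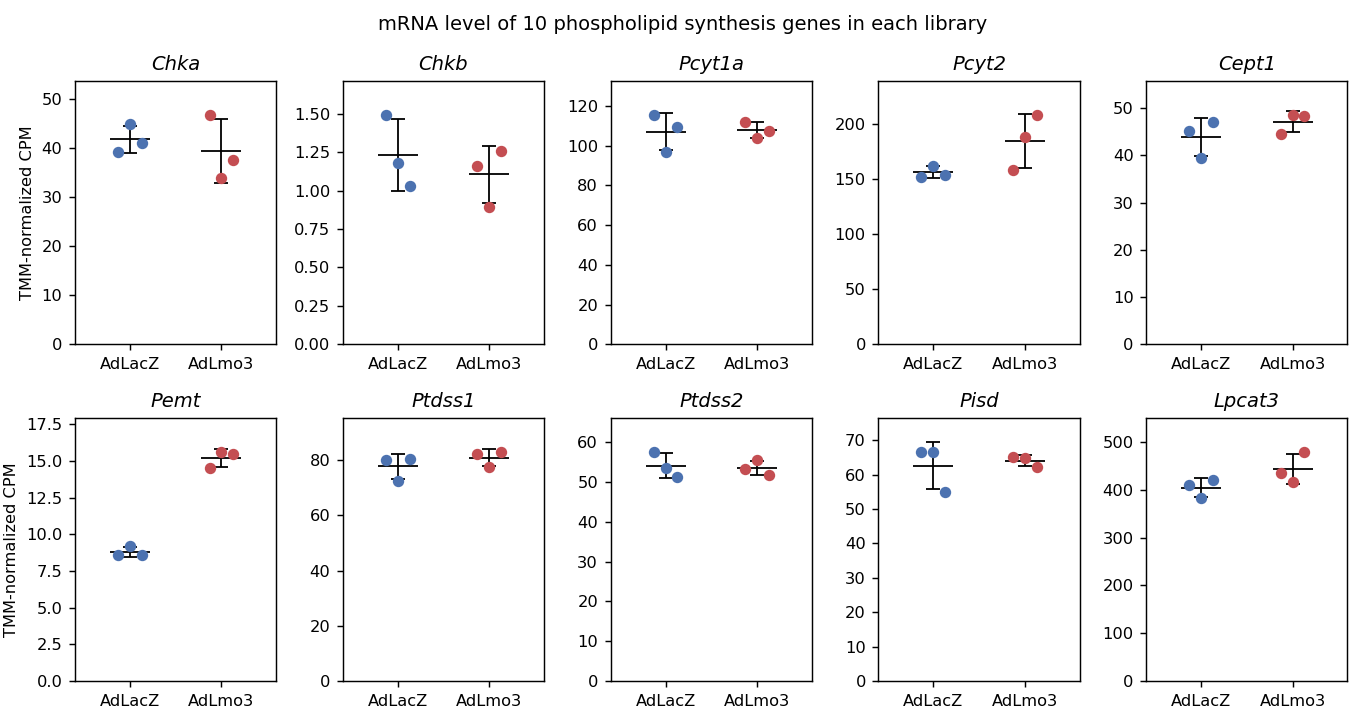
TMM-normalized CPM of each of the 10 genes (y axes from 0, a separate scale per gene) in 3 AdLacZ (blue) and 3 AdLmo3 (red) libraries, 1 point per library, with the mean and SD in black. Only for Pemt do the groups separate, at 8.57 to 9.19 CPM in AdLacZ and 14.5 to 15.6 CPM in AdLmo3.

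Pemt (ENSMUSG00000000301.16, chr11:59970614-60046489, minus strand, GRCm38) encodes phosphatidylethanolamine N-methyltransferase. Its level was 8.57, 9.19 and 8.58 CPM in AdLacZ replicates 1, 2 and 3 and 14.5, 15.6 and 15.5 CPM in AdLmo3 replicates 1, 2 and 3. The lowest AdLmo3 library thus stood well above the highest AdLacZ library, and within each group the libraries were close together. The means were 8.78 ± 0.353 and 15.2 ± 0.603 CPM, a 1.73-fold rise (log2 fold change 0.79, 95% interval 0.59 to 1.00, SE 0.0896, edgeR adjusted p = 0.00416). Of all tested genes, 0.439% had a smaller p. Raw counts were 291 to 359 in the AdLacZ libraries and 419 to 575 in the AdLmo3 libraries. None of the 2308 stretches of 75 bp in its transcripts, the length of the reads, occurred in another gene, and its exons overlapped no other gene. Pemt passed in 13 of 13 processing alternatives, with a log2 fold change of 0.72 to 0.83 and an adjusted p of 1.02e-08 to 0.0378, the highest without AdLacZ replicate 3.

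Markers of adipocytes moved in the same direction as Pemt. Of 7 adipocyte markers, 6 rose and Slc2a4 did not pass, with a median log2 fold change of 0.62. Their summed level was 11277 to 11686 CPM in the AdLacZ libraries and 16866 to 20945 CPM in the AdLmo3 libraries, without overlap, and no marker was at 0. The part of adipocyte content in the Pemt result was not tested, and in such bulk samples more cells of a type and more RNA per cell cannot be told apart. None of 8 preadipocyte and fibroblast markers passed, and their summed level was 15494 to 19939 CPM in AdLacZ and 15169 to 23002 CPM in AdLmo3. Most of that sum came from the collagen genes Col3a1 (9608 to 14422 CPM over all libraries) and Col1a1 (4191 to 6625 CPM). Over all libraries, Dlk1 was at 850 to 1422 CPM, Pdgfra at 149 to 221 CPM and Pdgfrb at 148 to 219 CPM. Lower were Acta2 at 50.4 to 93.4 CPM, Thy1 at 32.3 to 50.3 CPM and Cd34 at 0.154 to 0.562 CPM. Macrophage markers summed to 2.00 to 4.61 CPM over all libraries, and the defining markers Ptprc and Adgre1 were at or under 3 counts in each. The label of adipocytes is thus met by its markers, and markers of preadipocytes and fibroblasts were present beside them.

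The genes next to Pemt were looked at for a change of the whole region, after the values of these genes had been seen. Within 100 kb, 5 neighbours were tested and 1 passed. This was Rasd1, a Ras-related GTPase gene known for its induction by dexamethasone, which lies 5.67 kb away on the same strand (chr11:59963181-59964944). Rasd1 had 0.309, 0.563 and 0.147 CPM in AdLacZ replicates 1 to 3 and 1.51, 1.66 and 2.15 CPM in AdLmo3 replicates 1 to 3 (log2 fold change 2.33, SE 0.399, edgeR adjusted p = 0.0191). It is thus a low-level gene whose groups did not overlap. The log2 fold change was 0.45 for Rai1, whose edgeR adjusted p was 0.0558. The groups of Rai1 did not overlap either, at 59.6 to 75.4 CPM in AdLacZ and 80.8 to 96.1 CPM in AdLmo3. Over all tested genes, 26.5% had groups that did not overlap. The log2 fold change was 0.08 for Med9 and 0.10 for Nt5m, with edgeR adjusted p = 0.575 and 0.495. The groups of Med9, Nt5m and Med9os overlapped. Med9os, 1 of the 5 and the single neighbour with a value below 0, had a log2 fold change of -0.55 (edgeR adjusted p = 0.404) at 0.846 and 0.574 CPM on average. Over the neighbourhoods of all 10 enzymes, 2 of 56 tested neighbours passed, the other being Dennd2d beside Cept1. This is near the share of all tested genes that passed, 4.28%.

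The kinases that open the CDP-choline route did not pass. Chka (chr19:3851773-3894369, plus strand) encodes choline kinase alpha and had 39.3, 44.9 and 41.2 CPM in AdLacZ and 46.7, 33.9 and 37.7 CPM in AdLmo3. The AdLmo3 libraries lay on both sides of the AdLacZ range, and the log2 fold change was -0.08 with a 95% interval of -0.36 to 0.19 (SE 0.118, edgeR adjusted p = 0.747). Chkb (chr15:89426360-89429908, minus strand), the beta kinase, which is best known from muscle, had 1.49, 1.18 and 1.03 CPM in AdLacZ and 1.16, 0.896 and 1.26 CPM in AdLmo3. These were 33 to 53 counts per library, and the interval of the log2 fold change, -0.73 to 0.40 around -0.17, leaves room for changes in either direction (SE 0.248, edgeR adjusted p = 0.762). In addition, 45.4% of the 75-bp stretches of Chkb also belong to other annotated genes, so the counts of Chkb are uncertain. Among these genes is a read-through that continues into Cpt1b and was not among the counted symbols. Cpt1b itself, a carnitine palmitoyltransferase of muscle type, was at 0.264 ± 0.0757 and 0.254 ± 0.0851 CPM.

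At the cytidylyl transferase step neither Pcyt1a nor Pcyt2 passed. Pcyt1a (chr16:32430921-32475070, plus strand) had 115, 96.8 and 109 CPM in AdLacZ and 112, 104 and 108 CPM in AdLmo3, and the AdLmo3 values fell inside the AdLacZ range. Its log2 fold change was 0.01, with a 95% interval of -0.17 to 0.19 (SE 0.0788, edgeR adjusted p = 0.973), and 7.04% of its 75-bp stretches are shared with genes on the opposite strand. Pcyt2 (chr11:120610087-120617936, minus strand), the counterpart for ethanolamine, had 152, 162 and 154 CPM in AdLacZ and 158, 188 and 208 CPM in AdLmo3. Here 2 of the 3 AdLmo3 libraries were above all controls and replicate 1 was not. The log2 fold change was 0.24 with a 95% interval of 0.01 to 0.47 before adjustment (SE 0.0999, edgeR adjusted p = 0.218), the largest value among the 9 enzymes that did not pass.

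Pcyt1b, the second gene for the choline cytidylyl transferase, was not among the 10 but carries out the same step as Pcyt1a. It had 4.41, 3.74 and 3.48 CPM in AdLacZ and 6.29, 5.76 and 6.40 CPM in AdLmo3. It rose without overlap of the groups, by 0.66 on the log2 scale (SE 0.141, edgeR adjusted p = 0.0407). The call was lost when any 1 of the 6 libraries was left out (adjusted p 0.0513 to 0.160), and on library totals alone (0.0527).

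At the last step of both CDP routes, Cept1 (chr3:106502260-106547802, minus strand), the phosphotransferase that accepts choline and ethanolamine, had 45.2, 39.4 and 47.0 CPM in AdLacZ and 44.7, 48.5 and 48.4 CPM in AdLmo3. The groups overlapped, and the log2 fold change was 0.11 with a 95% interval of -0.08 to 0.29 (SE 0.0809, edgeR adjusted p = 0.526). Of its 75-bp stretches, 20.7% are shared with other genes, mainly Dennd2d on the opposite strand. Dennd2d rose from 4.89 to 8.89 CPM (log2 fold change 0.86, edgeR adjusted p = 0.00780), and whether strand was used in the counting is not given in the sources used here. Chpt1, specific for choline, was at 426 ± 99.4 and 505 ± 64.8 CPM and had a log2 fold change of 0.25 (edgeR adjusted p = 0.463). Selenoi (Ept1 in the counts), specific for ethanolamine, was at 94.0 ± 5.87 and 108 ± 5.04 CPM, with groups that did not overlap and a log2 fold change of 0.20 (SE 0.0709, edgeR adjusted p = 0.166).

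Neither phosphatidylserine synthase gene passed. Ptdss1 (chr13:66932830-66998401, plus strand), which replaces the choline of phosphatidylcholine by serine, had 80.1, 72.5 and 80.5 CPM in AdLacZ and 82.3, 77.6 and 82.9 CPM in AdLmo3. Ptdss2 (chr7:141122382-141157606, plus strand), which does the same with phosphatidylethanolamine, had 57.5, 53.4 and 51.3 CPM in AdLacZ and 53.2, 55.5 and 51.9 CPM in AdLmo3. Both pairs of groups overlapped. The log2 fold changes were 0.06 (95% interval -0.09 to 0.21, SE 0.0665, edgeR adjusted p = 0.679) for Ptdss1 and -0.01 (-0.17 to 0.14, SE 0.0655, edgeR adjusted p = 0.932) for Ptdss2, the narrowest intervals of the 10.

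Pisd (chr5:32736301-32785646, minus strand), the mitochondrial phosphatidylserine decarboxylase, had 66.6, 66.5 and 54.9 CPM in AdLacZ and 65.1, 64.8 and 62.3 CPM in AdLmo3. The AdLmo3 libraries lay within the AdLacZ range, and the log2 fold change was 0.03 with a 95% interval of -0.16 to 0.22 (SE 0.0836, edgeR adjusted p = 0.877). Of its 75-bp stretches, 17.0% occur in other genes, mainly in Gm20671, which overlaps Pisd on the same strand, so reads there cannot be assigned to 1 gene. Far fewer belong to its near copies elsewhere in the genome, which are given for comparison. The pseudogene Pisd-ps1 had more counts than Pisd, at 138 ± 20.7 and 139 ± 14.6 CPM, and Pisd-ps2 had 21.4 ± 2.43 and 20.9 ± 2.55 CPM, while Pisd-ps3 had a count of 0 throughout. Pisd took 26.4% to 32.0% of the counts of these genes together in each library, 28.4% on average in AdLacZ and 28.7% in AdLmo3, so the division of reads among them was alike in both groups.

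Lpcat3 (chr6:124663027-124704418, plus strand), the lysophospholipid acyltransferase, was the most abundant of the 10. It had 410, 383 and 421 CPM in AdLacZ and 435, 417 and 479 CPM in AdLmo3, with 1 AdLmo3 library inside the control range. The log2 fold change was 0.13 with a 95% interval of -0.05 to 0.31 (SE 0.0787, edgeR adjusted p = 0.391), and 7.49% of its 75-bp stretches are shared, mainly with Emg1. Of the other lysophosphatidylcholine acyltransferases, Lpcat4 was at 2.52 ± 0.164 and 3.69 ± 0.393 CPM, with groups that did not overlap (log2 fold change 0.55, SE 0.158, edgeR adjusted p = 0.0991). Lpcat1 and Lpcat2 had log2 fold changes of -0.06 and 0.32 with edgeR adjusted p = 0.845 and 0.573.

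**Figure D2:**
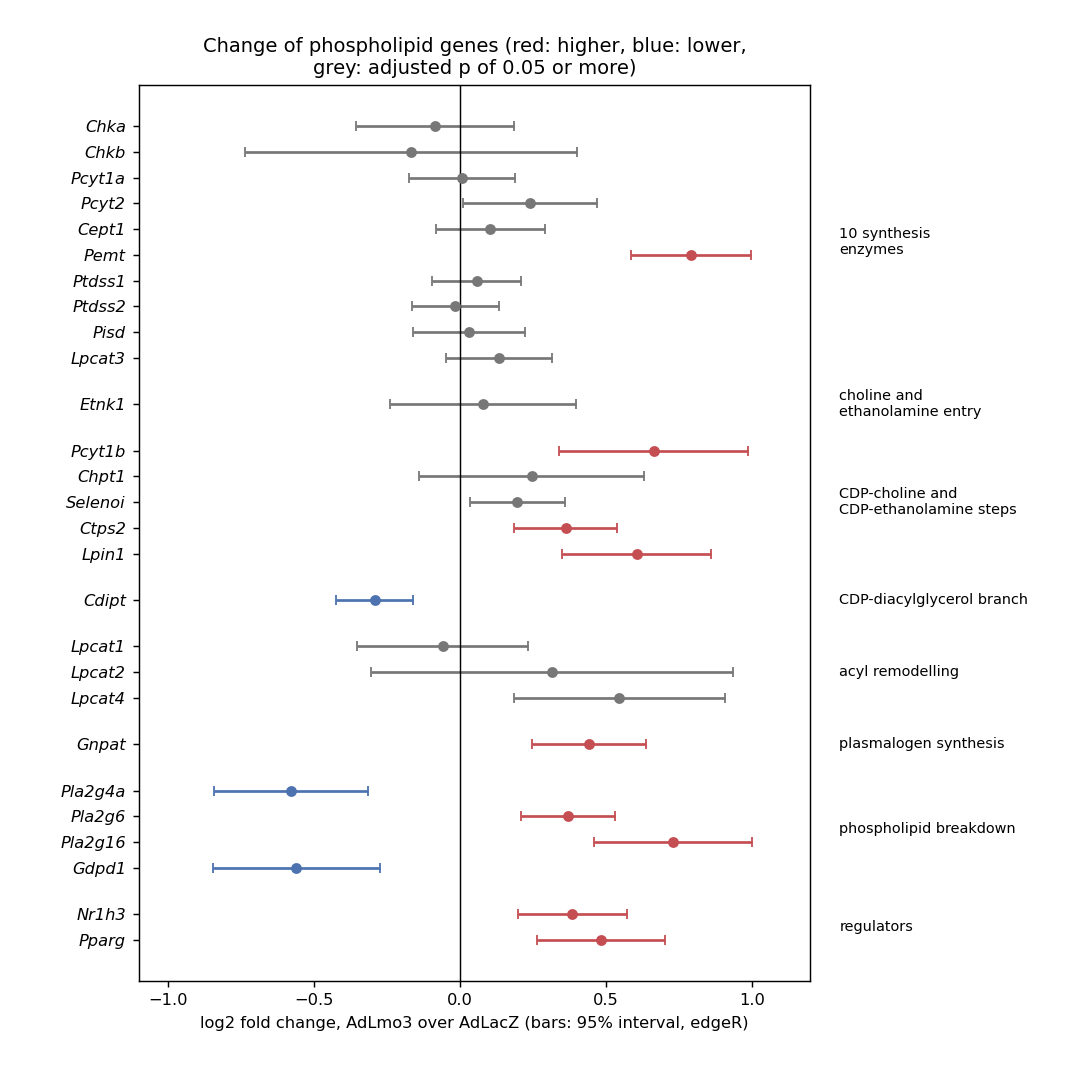
Log2 fold change of AdLmo3 over AdLacZ (x axis) with the 95% interval derived from the edgeR test, with 3 libraries per group. Shown are the 10 enzymes and, by list, other phospholipid genes and regulators. Red and blue points passed the test at an adjusted p under 0.05 as higher or lower and grey points did not, and Pemt at 0.79 is the 1 red point among the 10 enzymes at the top.

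Levels of different genes can be set side by side only per length of transcript. On the scale of CPM per kb of annotated exon, Lpcat3 led in the AdLacZ libraries with 124, followed by Pcyt2 with 35.9, Ptdss1 with 18.1, Pcyt1a with 14.5, Cept1 with 14.1, Pisd with 10.9, Ptdss2 with 9.61, Pemt with 4.17, Chka with 3.48 and Chkb with 0.403. The libraries of Pcyt1a and Cept1 overlapped, as did those of Pisd and Ptdss2, so these neighbours have no order. In the AdLmo3 libraries the level per kb was 7.23 for Pemt, nearer to that of Ptdss2 with 9.51, and 14.5 for Pcyt1a. The positions in this order were the same apart from Cept1 (15.1) and Pcyt1a, whose libraries again overlapped.

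The weight of the methylation route against the CDP-choline route was compared within each library through Pemt and Pcyt1a, a ratio that needs no library scaling. Per kb, the Pemt level was 29.1% of the Pcyt1a level in AdLacZ and 49.8% in AdLmo3. Of the sum of both, Pemt made up 20.7%, 25.1% and 21.7% in AdLacZ and 31.4%, 34.7% and 33.7% in AdLmo3, 22.5% ± 2.27 against 33.2% ± 1.68, without overlap. The log2 ratio of their counts was -3.60 ± 0.185 in AdLacZ and -2.82 ± 0.110 in AdLmo3, a difference of 0.78 or 1.72-fold. The exact two-sided permutation p of 0.1 is the smallest that 3 against 3 libraries can give, and it was 0.4 after adjustment over 4 ratios. These are levels of mRNA, and lipid flux through either route was not measured.

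Pcyt1b likewise took a larger part of the cytidylyl transferase pair in the AdLmo3 libraries, 7.32% ± 0.252 of Pcyt1b plus Pcyt1a per kb against 4.77% ± 0.481, without overlap. The other pairs overlapped. Chkb made up 10.4% ± 2.20 and 9.97% ± 1.44 of both choline kinases, and Ptdss2 made up 34.7% ± 1.74 and 33.5% ± 1.57 of both phosphatidylserine synthases. The log2 ratio of counts differed by 0.06 for Chka to Chkb (exact two-sided permutation p = 0.8, adjusted 0.8), by 0.07 for Ptdss1 to Ptdss2 (exact permutation p = 0.4, adjusted 0.533) and by -0.22 for Pcyt1a to Pcyt2 (exact permutation p = 0.2, adjusted 0.4).

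**Figure D3:**
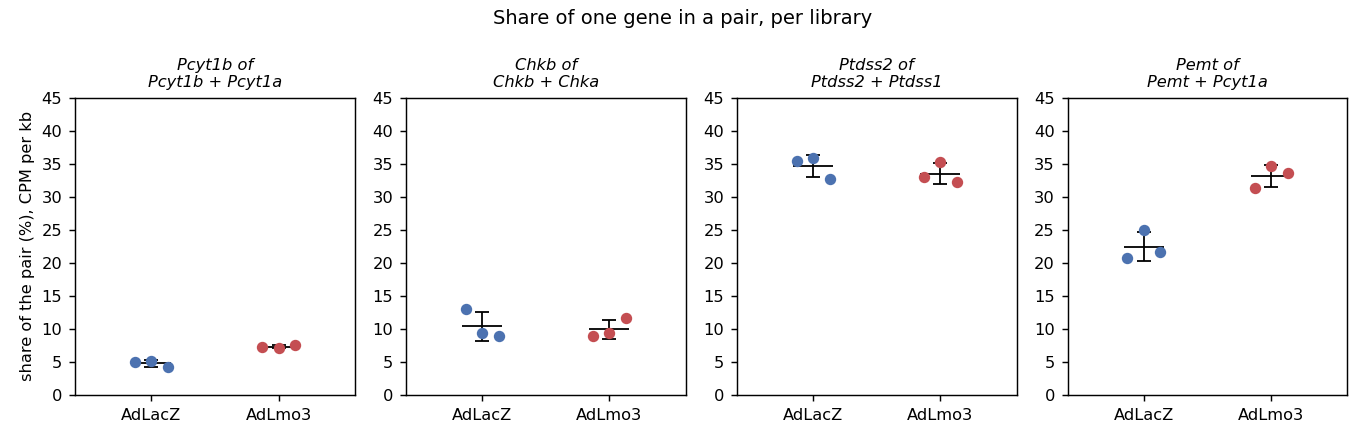
Share (y axis, %) of the first gene in the summed CPM per kb of each pair, 1 point per library, with mean and SD in black for 3 AdLacZ (blue) and 3 AdLmo3 (red) libraries. The groups are apart for Pemt of Pemt plus Pcyt1a (22.5% and 33.2% on average) and for Pcyt1b of Pcyt1b plus Pcyt1a (4.77% and 7.32%), and they overlap for the choline kinases and the phosphatidylserine synthases.

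Other genes were taken from 10 lists by role, 67 genes of which 63 were tested. Most act in phospholipid metabolism, and the rest are regulators and genes adjacent or similar to one of the 10. Of the 63 tested, 11 passed, 8 higher and 3 lower, which is 17.5% against 4.28% of all tested genes. The median log2 fold change was 0.04. The lists were chosen with earlier results of these data known, so the difference between these shares cannot be read as a result. The count rests on every library, as it was 3, 1 and 0 without AdLacZ replicates 1, 2 and 3 and 7, 0 and 2 without AdLmo3 replicates 1, 2 and 3. On library totals alone 9 passed, 5 higher and 4 lower. With edgeR on all libraries, no gene passed for the uptake and kinase step of choline and ethanolamine (5 tested) or for acyl remodelling (9 tested). None passed for the supply of methyl groups that Pemt uses (3 tested: Mat2a, Mat2b and Ahcy) or for phosphatidylserine transfer (4 tested). Of the transfer genes, Triap1 had groups that did not overlap (log2 fold change -0.30, edgeR adjusted p = 0.0644). It passed as lower with DESeq2 and on library totals alone. The ethanolamine kinase Etnk1 had a log2 fold change of 0.08 (edgeR adjusted p = 0.798), and Etnk2 had at most 2 counts in a library.

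In the CDP-choline and CDP-ethanolamine list, 3 of 8 genes rose. Besides Pcyt1b these were Lpin1 and Ctps2. Lpin1, a phosphatidate phosphatase that makes the diacylglycerol used by both CDP routes and by triglyceride synthesis, had 297, 391 and 361 CPM in AdLacZ and 495, 575 and 527 CPM in AdLmo3 (log2 fold change 0.61, SE 0.111, edgeR adjusted p = 0.0240). Its groups did not overlap. Ctps2, a synthase of the CTP that the cytidylyl transferases consume, rose from 119 ± 8.39 to 152 ± 8.85 CPM (log2 fold change 0.36, SE 0.0773, edgeR adjusted p = 0.0417). Without single libraries, the adjusted p reached 0.110 for Lpin1 and 0.126 for Ctps2, both without AdLmo3 replicate 2, and on library totals alone it was 0.0588 for Ctps2.

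Of the 6 tested genes of the CDP-diacylglycerol branch, 1 changed. This was Cdipt, the phosphatidylinositol synthase, which fell from 77.4 ± 2.40 to 63.3 ± 1.45 CPM (log2 fold change -0.29, SE 0.0570, edgeR adjusted p = 0.0305). The call was lost in all 6 fits without 1 library (adjusted p 0.0573 to 0.137). In plasmalogen synthesis, 1 of 4 changed, the peroxisomal acyltransferase Gnpat, which rose from 329 ± 29.8 to 447 ± 22.1 CPM (log2 fold change 0.44, edgeR adjusted p = 0.0287). Its adjusted p was 0.0689 and 0.124 without AdLacZ replicates 2 and 3, and 0.102 and 0.0735 without AdLmo3 replicates 2 and 3.

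Phospholipid breakdown had genes that moved either way, with 2 of 15 higher and 2 lower. Pla2g16, a phospholipase abundant in adipose tissue, had 302, 250 and 308 CPM in AdLacZ and 408, 494 and 524 CPM in AdLmo3 (log2 fold change 0.73, SE 0.118, edgeR adjusted p = 0.0160), and the calcium-independent phospholipase Pla2g6 rose, with 81.5 to 86.5 CPM in AdLacZ and 100.3 to 114.5 CPM in AdLmo3 (log2 fold change 0.37, edgeR adjusted p = 0.0265). The cytosolic phospholipase Pla2g4a, which releases arachidonate, fell, with 27.2 to 33.1 CPM in AdLacZ and 17.6 to 22.5 CPM in AdLmo3 (log2 fold change -0.58, edgeR adjusted p = 0.0323), and the glycerophosphodiester phosphodiesterase gene Gdpd1 fell from 11.4 ± 0.407 to 7.69 ± 1.12 CPM (edgeR adjusted p = 0.0467). Of 6 regulators, 2 rose. These were Nr1h3, which encodes the lipid-sensing receptor LXRα, from 97.5 ± 7.88 to 127 ± 7.67 CPM (edgeR adjusted p = 0.0405), and Pparg, the nuclear receptor that binds TZD, which all 6 cultures received, from 389 ± 29.2 to 544 ± 56.0 CPM (edgeR adjusted p = 0.0316). Lpcat3, known as a target of LXRα, did not pass. None of these breakdown and regulator calls held without AdLacZ replicate 3 (adjusted p 0.0715 to 0.175) or without AdLmo3 replicate 2 (0.0797 to 0.160), and that of Nr1h3 was also lost on library totals alone (0.0639).

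**Figure D4:**
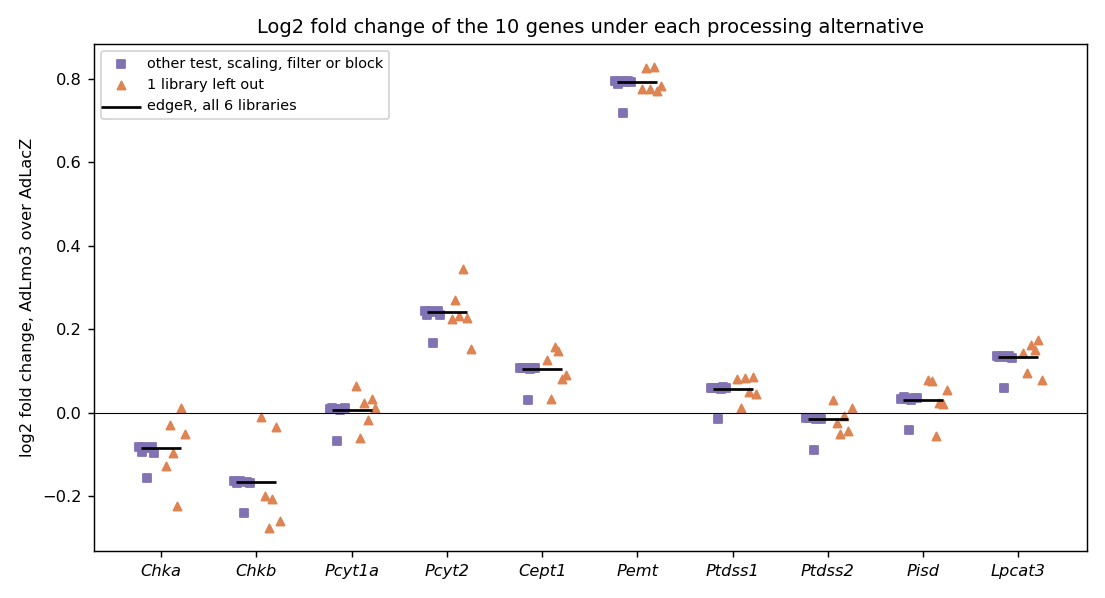
Log2 fold change of AdLmo3 over AdLacZ (y axis) for each of the 10 enzymes, with the edgeR value from all 6 libraries as a black line, other tests, scalings, filters and the replicate block as squares, and fits without 1 library as triangles. Pemt lies between 0.72 and 0.83 throughout, and the other 9 enzymes lie between -0.28 and 0.34, several of them on both sides of 0.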

How the data were processed

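Per the labels and the study's methods, RNA was made into libraries with the NEBNext Ultra II RNA kit and sequenced as 75-bp single reads. The submitters' processing notes name bcl2fastq, STAR 2.5.0b, the mm10 (GRCm38) build and DESeq2 1.6.3. The authors deposited raw counts of reads per gene symbol, 1 table per library. The counting program, strand setting and annotation are not given in the sources used here. Reads given to no gene (7.15% to 8.94%) or to several (0.476% to 0.543%) were left out.

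All genes were fitted together by the quasi-likelihood test of edgeR 4.0.16 (R 4.3.3) after filterByExpr and TMM scaling, without a replicate block, a threshold of 0.05 on Benjamini-Hochberg adjusted p-values and 12766 of 18078 genes with a count tested. The procedure was tested on simulated data. Alternatives were DESeq2 1.42.0, limma 3.58.1 (voom), RLE scaling, library totals, no filter or at least 10 CPM in 3 libraries, a replicate block, and leaving out each library. Ratios of 2 genes had 0.5 added to each count (alternative 5). Intervals cover these libraries only, and floors of 3 counts cover counting error only. Exons, positions and 75-bp stretches are from GENCODE M21, promoter windows from RefSeq, and plots from matplotlib 3.10.9. The genes named were the 10 enzymes and the list genes that passed, in the main test or an alternative. Also named were genes of the same step as, adjacent to or similar to one of the 10. The neighbours of the 10 genes, the promoter motifs and the genes named from them were chosen after seeing the data. The enzymes and lists were chosen with earlier results of these data known. No sequence of a protein was used here.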

Additional observations from a re-analysis of the deposited data

How the results depend on the processing

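Pemt was the 1 enzyme of the 10 that passed, under edgeR with all libraries and under each of 13 alternatives. Of all genes, 547 passed with edgeR and 1110 with DESeq2 (672 higher, 438 lower), and 78 to 500 without 1 library. Of the list genes, 11 passed, and 0 to 7 without 1 library. Library totals alone moved the median of all genes to -0.07 and turned the log2 fold change of Pcyt1a to -0.066, Ptdss1 to -0.015, Pisd to -0.042 and Pisd-ps1 to -0.056. Without 1 library the sign was not stable for values near 0, which ranged from -0.060 to 0.064 for Pcyt1a, from -0.22 to 0.012 for Chka, from -0.051 to 0.032 for Ptdss2, from -0.055 to 0.078 for Pisd, from -0.098 to 0.18 for Etnk1, from -0.13 to 0.030 for Lpcat1, from -0.37 to 0.13 for Cpt1b, from -0.064 to 0.14 for Pisd-ps1, from -0.15 to 0.057 for Pisd-ps2 and from -0.13 to 0.18 for the log2 ratio of Chka to Chkb. Over 30 of the named genes and 383 values, 301 kept direction and call, 60 kept direction without passing and 22 changed sign. The cause was not tested.

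The replicate numbers do not pair the libraries by the threshold used, since same-numbered libraries deviated together with correlations of 0.0345, 0.176 and 0.176 where 0.1 was required of each. With the number as a block, 498 genes passed (348 higher, 150 lower), 7 list genes passed in place of 11 (lost were Pcyt1b, Cdipt, Pla2g6 and Gdpd1, with adjusted p of 0.0593, 0.0582, 0.0505 and 0.0638), and Pemt passed with an adjusted p of 0.0146. The exact paired permutation p of the log2 ratio of Pemt to Pcyt1a was 0.25, the smallest that 3 pairs can give. The depth limits Chkb most, at 33 to 53 counts per library.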
